A study of Homo sapiens with 20 samples.

Results

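The Wnt ligands, the Frizzled receptors, the co-receptors LRP5 and LRP6, the secreted DKK and SFRP inhibitors, AXIN1 and AXIN2, β-catenin (CTNNB1) and the TCF/LEF factors were followed in NGP cells, a neuroblastoma cell line. The genes were taken by name: every protein-coding gene named WNT, FZD, DKK or SFRP with a number, together with LRP5, LRP6, AXIN1, AXIN2, CTNNB1, LEF1, TCF7, TCF7L1 and TCF7L2. These were 46 of the 19563 protein-coding genes in the files, made up of 19 ligands, 10 Frizzled receptors, 2 co-receptors, 8 secreted inhibitors, 2 AXIN genes, CTNNB1 and 4 TCF/LEF factors. NGP cells in 6-well format were given 8 µM nutlin-3 as a racemic mixture (10 samples) or ethanol as the vehicle (10 samples), and polyadenylated RNA was sequenced. Nutlin-3 blocks the binding of MDM2 to p53 and so stabilises p53. The study's methods call the samples biological replicates, all are of 1 cell line, and no treatment time was given in the sources used here.

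In the canonical Wnt pathway a secreted ligand binds a Frizzled receptor and LRP5 or LRP6, which stops a complex of AXIN, APC and kinases from marking β-catenin for degradation. β-catenin then enters the nucleus and acts with TCF/LEF factors on target genes, of which AXIN2 is a well-known one that feeds back on the pathway. DKK proteins such as DKK1 and DKK2 bind the co-receptors, and SFRP proteins carry a Frizzled-like domain that binds Wnt outside the cell. Wnt signalling takes part in the formation and migration of the neural crest, from which the sympathetic lineage of neuroblastoma derives.

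Depth, as the total of estimated counts, was 14455477 to 19532971 read pairs per vehicle sample and 15078052 to 17442896 per nutlin sample. The treatment was visible in the p53 targets MDM2 and CDKN1A, the first 4.51 and the second 5.68 higher on the log2 scale with nutlin-3, with no overlap of the conditions. The 12 neuroblastoma markers reported, among them HAND2, GATA3 and MYCN, were all tested and averaged 1 CPM or more (counts scaled by library size, per 1e+06), and their summed TPM (a level per length, scaled to the same total) was 4422 to 5281 in vehicle and 4876 to 5912 in nutlin samples. Singly, 5 of them rose and 6 fell at 5% false discovery rate, with a median log2 fold change of -0.11, and in 8 the conditions did not overlap. The summed TPM of 7 immune and endothelial markers was 1.1 to 2.8 in vehicle and 3.65 to 7.88 in nutlin samples, with CD68 as the largest part (0.918 and 4.29 TPM in the mean). Of the 6 that were tested 2 rose and 1 fell at 5% false discovery rate, with a median log2 fold change of 0.06, and CD3E was too low to test. The sum of 6 epithelial markers was 1.0 to 2.2 and 2.5 to 4.2 TPM, and 4 of them rose. Of these 6, 5 averaged below 1 CPM, where 35.4% of all mRNAs rose and the median log2 fold change was 0.67. That of 12 mesenchymal markers was 764 to 879 in vehicle and 470 to 636 TPM in nutlin samples, mostly from VIM (640 and 428 TPM in the mean). Of these 12, VIM, TWIST1, FN1 and LUM fell, COL1A1, CD44, PRRX1 and YAP1 rose and 4 did not pass, with a median log2 fold change of 0.22. Beside these counts, 32.4% of all mRNAs tested rose and 38.5% fell. The part of these markers in the results was not tested.

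The data showed a receptor set whose make-up differed between the conditions, and lower RNA levels of β-catenin, of 3 of the 4 TCF/LEF factors, of AXIN2 and of the main secreted inhibitors with nutlin-3. Of these, the inhibitor DKK1 and the factor TCF7L2 overlapped between the conditions, and each lost its call in 1 of 30 alternatives. Of the 46 genes, WNT8A had no count in any sample and 45 were tested by edgeR's quasi-likelihood F-test with Benjamini-Hochberg adjustment over all 27697 genes tested. At 5% false discovery rate (FDR), 15 were significantly differentially expressed (SDE) upwards (33.3%), 14 downwards (31.1%) and 16 did not pass. Over all genes tested, 32.3% were SDE upwards and 26.5% downwards, and over all mRNAs 32.4% and 38.5%. Among the 22 genes of the set that averaged 1 CPM or more, 7 rose, 14 fell and only FZD7 did not pass, where 31.4% of all mRNAs at that level rose and 50.6% fell. Their median log2 fold change (LFC) was -0.30, beside -0.15 for all mRNAs of at least 1 CPM. The 23 tested genes below 1 CPM held 8 that rose (34.8%) and none that fell, against 35.4% and 4.59% of all mRNAs below 1 CPM, so these shares were close to the background. In 12 genes of the set (26.7%) every nutlin sample lay above or below every vehicle sample, as in 28.8% of all genes tested and 40.2% of all mRNAs. In bulk RNA, fewer cells with a transcript and less of it per cell cannot be told apart.

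**Figure D1:**
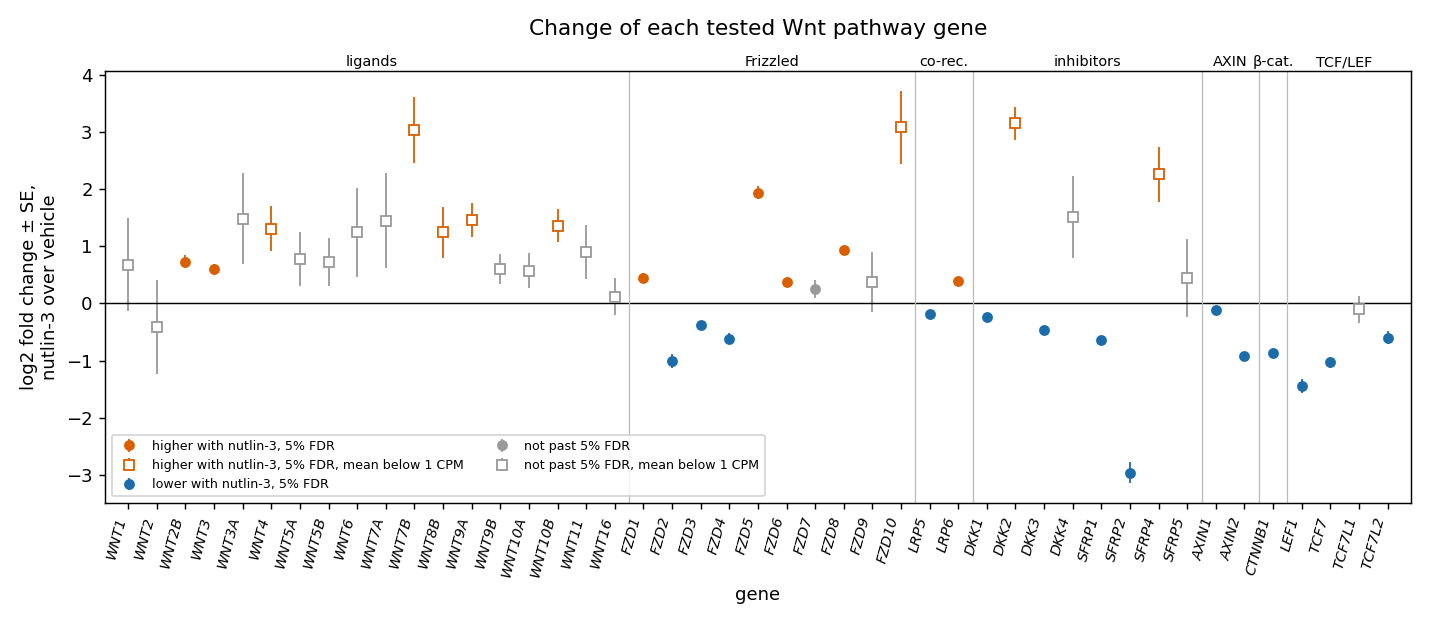
LFC of nutlin-3 over vehicle with its SE (vertical axis) for the 45 tested genes, grouped by role (horizontal axis), with filled circles for a mean of at least 1 CPM, open squares for less, and colours for the call at 5% FDR. The ligands lie at or above 0 apart from WNT2, while the AXIN genes, CTNNB1 and the 4 TCF/LEF factors all lie below it. WNT7B and FZD10 rest on 3 and 2 vehicle read pairs, so that their plotted values depend on the prior count.

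For the transcribed regions that the results turn on, RefSeq promoter windows (GRCh38.p14) were matched by symbol. Of the 46 genes, 32 had a window, with 38 windows in all, each of 250 bases before the start site. Those without one were AXIN2, DKK2, DKK3, DKK4, FZD10, FZD2, FZD3, FZD6, FZD7, LRP6, SFRP1, WNT10B, WNT11 and WNT7B. The windows of the inhibitor with the highest TPM over all its transcripts (DKK1), of the Frizzled gene with the largest rise among those of at least 1 CPM (FZD5) and of the inhibitor with the largest fall (SFRP2) are shown, written 5′ to 3′ on the strand of the gene. Capitals mark the TCF/LEF core CTTTGA on either strand, searched together with the p53 half-site. DKK1 lies at chr10:52314031-52314280 on the plus strand, FZD5 at chr2:207769907-207770156 and SFRP2 at chr4:153789084-153789333, both on the minus strand.
DKK1: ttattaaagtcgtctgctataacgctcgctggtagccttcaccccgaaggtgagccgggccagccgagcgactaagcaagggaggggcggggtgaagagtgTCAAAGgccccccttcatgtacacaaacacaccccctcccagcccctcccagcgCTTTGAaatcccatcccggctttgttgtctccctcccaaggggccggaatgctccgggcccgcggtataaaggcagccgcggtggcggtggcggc
FZD5: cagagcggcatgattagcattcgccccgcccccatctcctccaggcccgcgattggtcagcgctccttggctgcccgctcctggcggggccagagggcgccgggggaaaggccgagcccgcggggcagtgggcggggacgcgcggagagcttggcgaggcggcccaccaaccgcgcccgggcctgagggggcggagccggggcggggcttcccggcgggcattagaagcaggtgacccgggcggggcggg
SFRP2: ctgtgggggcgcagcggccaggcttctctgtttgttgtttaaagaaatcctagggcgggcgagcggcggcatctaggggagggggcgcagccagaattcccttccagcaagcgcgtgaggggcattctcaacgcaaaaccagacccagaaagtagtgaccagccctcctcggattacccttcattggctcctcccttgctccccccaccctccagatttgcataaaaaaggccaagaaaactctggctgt
The DKK1 window held the core at 149 and at 95 bases before the start site, the former on the opposite strand. It was the only one of the 38 windows (2.63%) with the core, which was found in 11.2% of 35116 human promoter windows of the same length. No window of the set held the p53 half-site, found in 5.57% of all. The G and C content of the windows was 62.8% for DKK1, 76.8% for FZD5 and 57.6% for SFRP2. Such a match is a description of letters and not of a bound site, and the absence of one says nothing of the factor.

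The ligands were the least expressed class. The TPM of all 19 summed to 2.40 ± 0.197 (SD, n = 10) in vehicle and to 4.44 ± 0.922 (SD, n = 10) in nutlin samples. In vehicle the sum ran from 2.06 to 2.65 with a median of 2.44, and with nutlin-3 from 3.14 to 6.26 with a median of 4.50, so the conditions did not overlap. The 18 tested ligands had a median LFC of 0.84, and 16 of them were below 1 CPM, where all mRNAs had a median LFC of 0.67. Only WNT2B and WNT3, both ligands of the β-catenin branch, averaged 1 CPM or more. WNT3 made up 41.1% ± 9.36 (SD, n = 10) of the ligand TPM in vehicle and 33.8% ± 4.21 with nutlin-3, and WNT2B 13.2% ± 3.36 and 14.1% ± 3.62.

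WNT2B was at 1.72, 2.37 and 2.88 CPM (lowest, median and highest, after TMM normalisation, as for all CPM values given) in vehicle and at 2.94, 3.86 and 5.33 CPM in nutlin samples. Every nutlin sample lay above every vehicle sample, by a narrow margin. The LFC was 0.73 ± 0.12 (SE), with an adjusted p of 2.9e-06. WNT2B shares 21.5% of its exonic bases with ST7L on the opposite strand, whose own LFC was 0.17, and whether the authors' counting used the strand was not given in the sources used here. WNT3 was at 2.08, 2.31 and 3.18 CPM in vehicle and at 3.01, 3.84 and 4.27 CPM in nutlin samples, with a small overlap of the conditions. Its LFC was 0.59 ± 0.10 (SE) with an adjusted p of 1.3e-05.

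Of the 16 tested ligands below 1 CPM, 5 rose (31.2%), none fell and none was without overlap of the conditions. Among all mRNAs below 1 CPM, 35.4% rose and 4.59% fell. WNT9A rose from 38 to 110 read pairs summed over the 10 samples of a condition, with an LFC of 1.46 ± 0.30 (SE) and an adjusted p of 8.7e-05. WNT10B went from 22 to 60 read pairs (LFC 1.36 ± 0.30, adjusted p 0.00021) and WNT4 from 24 to 63 (LFC 1.30 ± 0.39, adjusted p 0.0051). WNT8B, a ligand of the developing forebrain, went from 15 to 38 read pairs (LFC 1.25 ± 0.45, adjusted p 0.017). These totals are a few read pairs per sample, so that each level is known only roughly. WNT7B had 3 read pairs in all vehicle and 34 in all nutlin samples, a ratio of 11.05 with an exact 95% interval of 3.47 to 56.2 that covers counting error alone (adjusted p 3.7e-05 by edgeR).

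The other 11 tested ligands did not pass, with between 1 and 54 read pairs over the vehicle and 2 and 60 over the nutlin samples. Among them were WNT5A and WNT11, ligands best known for branches that do not use β-catenin. WNT5A had 16 read pairs in vehicle and 29 with nutlin-3 (LFC 0.78 ± 0.48, adjusted p 0.17) and WNT11 15 and 30 (LFC 0.90 ± 0.47, adjusted p 0.10). WNT16 had 54 and 60, and WNT5B, WNT6, WNT9B and WNT10A had 20, 5, 38 and 36 read pairs in vehicle and 35, 14, 60 and 56 with nutlin-3. WNT1, WNT2, WNT3A and WNT7A had at most 8 read pairs in either condition, so that little can be said of them at this depth. WNT9B (LFC 0.61 ± 0.26, adjusted p 0.059) lay close to the threshold and passed in 9 of 29 alternative fits, with adjusted p from 0.011 to 0.27 over them.

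The Frizzled genes differed little in sum but changed in make-up. Their summed TPM was 19.8 ± 2.29 (SD, n = 10) in vehicle and 20.9 ± 2.59 in nutlin samples, and the ranges of 16.5 to 23.3 and 16.9 to 25.7 overlapped almost wholly. Of the 10 genes, 5 rose, 3 fell and 2 did not pass, where 32.4% of all mRNAs tested rose and 38.5% fell. FZD5 and FZD8 lay above and FZD2 below the vehicle samples without overlap.

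FZD5 (chr2:207762598-207769906, minus strand in GRCh38), a receptor known from the eye and from Paneth cells of the gut, was at 1.87, 2.66 and 3.91 CPM in vehicle and at 8.22, 10.1 and 12.2 CPM in nutlin samples. The lowest nutlin sample was above the highest vehicle sample by more than the whole vehicle range. The LFC was 1.94 ± 0.11 (SE), 3.83 times the vehicle level, with an adjusted p of 8.1e-16. Its share of the Frizzled TPM went from 2.13% ± 0.392 (SD, n = 10) to 7.80% ± 1.35. FZD8, whose extracellular domain is the one best known in complex with Wnt, was at 3.78, 4.91 and 6.18 CPM in vehicle and at 7.59, 9.39 and 10.8 CPM with nutlin-3. Again the conditions were apart, with an LFC of 0.93 ± 0.09 (SE) and an adjusted p of 7.2e-11.

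Smaller rises were seen for FZD1 and FZD6, both with overlapping conditions. FZD1 went from 8.10, 9.41 and 12.1 CPM to 9.99, 13.05 and 15.9 CPM, with an LFC of 0.44 ± 0.09 (SE) and an adjusted p of 4.5e-05. FZD6, a receptor of planar cell polarity, went from 6.54, 8.95 and 11.2 CPM to 9.97, 11.7 and 13.3 CPM, with an LFC of 0.37 ± 0.08 (SE) and an adjusted p of 0.00025. Over its protein-coding transcripts alone, the mean level was 1.36 TPM in vehicle and 1.38 TPM with nutlin-3. FZD6 shares 3.39% of its exonic bases with the lncRNA BAALC-AS1 on the opposite strand, whose LFC was 0.42. FZD10 had 2 read pairs over the vehicle and 27 over the nutlin samples, a ratio of 13.2 with an exact 95% interval of 3.31 to 114 (adjusted p 0.00012 by edgeR).

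FZD2 (chr17:44557484-44561262, plus strand) was the Frizzled gene with the largest fall. It was at 4.47, 6.46 and 10.03 CPM in vehicle and at 2.38, 3.47 and 3.89 CPM in nutlin samples. All nutlin samples lay below all vehicle samples, and the vehicle samples were the more spread. The LFC was -1.01 ± 0.12 (SE) with an adjusted p of 2.0e-08, and its share of the Frizzled TPM went from 17.9% ± 3.72 (SD, n = 10) to 8.37% ± 1.14.

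FZD4, the receptor of Norrin in the vessels of the retina, was at 4.82, 5.92 and 7.46 CPM in vehicle and at 3.02, 3.95 and 4.89 CPM with nutlin-3. The LFC was -0.62 ± 0.10 (SE) with an adjusted p of 2.5e-06, and the ranges met only at their ends. It shares 18.9% of its exonic bases with PRSS23 on the opposite strand, whose LFC was 1.35. FZD3, needed for the guidance of axons and the most abundant Frizzled gene, was at 38.1, 46.3 and 54.5 CPM in vehicle and at 31.2, 35.6 and 38.5 CPM with nutlin-3. Its LFC was -0.37 ± 0.06 (SE) with an adjusted p of 1.4e-06, but the call was lost once the effective transcript length entered the fit (LFC -0.21, adjusted p 0.20).

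FZD7 did not pass, at 1.46, 2.29 and 3.30 CPM in vehicle and 1.30, 2.71 and 3.95 CPM with nutlin-3 (LFC 0.26 ± 0.16, adjusted p 0.16). Nor did FZD9, with 14 read pairs over the vehicle and 19 over the nutlin samples. FZD3 held the largest share of Frizzled TPM in both conditions, at 39.3% ± 4.38 (SD, n = 10) in vehicle and 32.2% ± 6.82 with nutlin-3, and FZD6 was next with 18.5% ± 2.44 and 23.2% ± 3.50. The place of FZD6 rests on transcripts that are not annotated as protein-coding. Over protein-coding transcripts alone it was at 1.36 TPM in vehicle, below FZD2 (3.56 TPM) and FZD1 (1.49 TPM), and at 1.38 TPM with nutlin-3, below FZD8, FZD1, FZD2 and FZD5, while FZD3 stayed highest. FZD8 moved from 6.74% ± 1.13 to 12.04% ± 1.79.

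**Figure D2:**
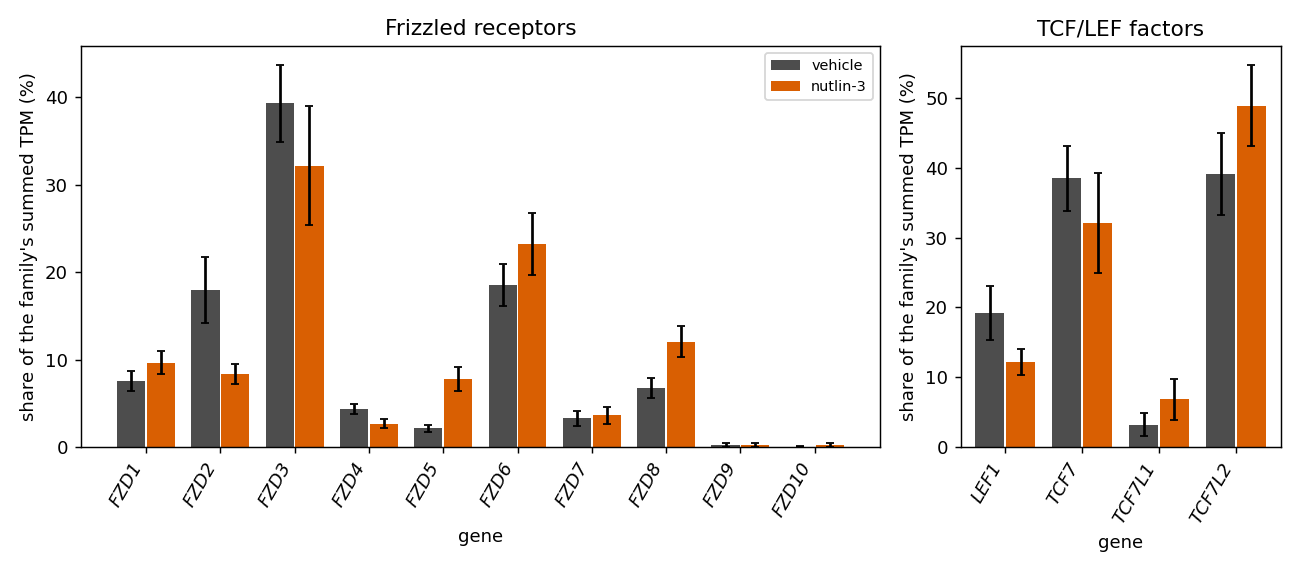
Share of each gene in the summed TPM of the 10 Frizzled receptors (left) and of the 4 TCF/LEF factors (right), in percent (vertical axes), as the mean over 10 samples per condition with the SD. FZD5 and FZD8 take larger shares with nutlin-3 and FZD2 and LEF1 smaller ones, while FZD3 keeps the largest Frizzled share.

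The co-receptors went opposite ways, and by little. LRP6 (chr12:12116025-12267044, minus strand) was at 58.9, 72.6 and 81.9 CPM in vehicle and at 88.0, 94.5 and 101 CPM with nutlin-3. The conditions were apart, with an LFC of 0.39 ± 0.05 (SE) and an adjusted p of 1.7e-07. LRP5, in which loss of function lowers bone mass, was at 77.5, 84.0 and 91.9 CPM in vehicle and at 66.9, 73.5 and 83.3 CPM with nutlin-3, with overlap. Its LFC was -0.18 ± 0.04 (SE) with an adjusted p of 0.00026, and this direction was reversed without TMM (LFC 0.01, adjusted p 0.88), where scaling by library size alone raised the LFC of all genes by a median of 0.19. Per length, LRP5 was the more abundant of the pair in both conditions, at 25.7 ± 2.38 TPM (SD, n = 10) and 21.6 ± 1.70 TPM, against 9.94 ± 2.09 TPM and 15.9 ± 1.62 TPM for LRP6.

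Among the secreted inhibitors, the 4 genes of at least 1 CPM all fell and 2 of the 4 lower ones rose. That mean is over both conditions, so the side on which a gene lies can depend on its change. SFRP2 passed it only through vehicle (2.40 CPM in the mean, 0.304 with nutlin-3). DKK2 fell just short of it (0.190 CPM in the mean of vehicle, 1.80 with nutlin-3). Of all mRNAs of at least 1 CPM 50.6% fell, and of all those below it 35.4% rose. The TPM of the class summed to 208 ± 23.0 (SD, n = 10) in vehicle and 164 ± 14.1 with nutlin-3, and at 176 to 232 and 138 to 180 the ranges overlapped. DKK1 and SFRP1 made up 66.3% ± 2.92 (SD, n = 10) and 28.6% ± 2.51 of it in vehicle, and 72.5% ± 1.66 and 22.6% ± 1.39 with nutlin-3. The share of DKK1 rests in large part on transcripts not annotated as protein-coding. Over protein-coding transcripts alone, DKK1 was at 48.8 TPM in vehicle and 39.8 TPM with nutlin-3, and SFRP1 at 58.9 and 37.0 TPM.

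SFRP1 (chr8:41261962-41309473, minus strand) was at 228.5, 242 and 257 CPM in vehicle and at 141, 156 and 166 CPM with nutlin-3, far apart beside the spread within a condition. The LFC was -0.64 ± 0.03 (SE) with an adjusted p of 1.3e-16. SFRP2, the gene with the largest fall in the whole set, was at 1.92, 2.43 and 2.82 CPM in vehicle and at 0.124, 0.318 and 0.451 CPM with nutlin-3. This is 30 to 42 read pairs in a vehicle and 2 to 7 in a nutlin sample. The LFC was -2.96 ± 0.18 (SE), a level 7.77 times lower, with an adjusted p of 1.1e-14. The promoter window of SFRP2 printed above held neither motif.

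DKK1, which binds LRP5 and LRP6, was at 87.3, 111 and 132 CPM in vehicle and at 83.4, 90.7 and 103 CPM with nutlin-3, with wide overlap. The LFC was -0.24 ± 0.06 (SE) with an adjusted p of 0.0012, and the call was lost with scaling by library size alone (LFC -0.05, adjusted p 0.53). DKK3, a divergent family member, was at 12.5, 15.9 and 19.96 CPM in vehicle and at 10.3, 11.6 and 13.5 CPM with nutlin-3 (LFC -0.46 ± 0.07, adjusted p 2.0e-06). It shares 47.5% of its exonic bases with USP47 on the opposite strand, whose LFC was -0.18, so that its count is uncertain.

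DKK2 (chr4:106921802-107283806, minus strand), which binds the same co-receptors, rose from a level near the detection limit. It was at 0, 0.204 and 0.526 CPM in vehicle and at 1.09, 1.85 and 2.06 CPM with nutlin-3. In read pairs this was 0 to 9 in a vehicle and 16 to 34 in a nutlin sample, and the conditions were apart, which held for 5.6% of all mRNAs below 1 CPM in that direction. The LFC was 3.15 ± 0.29 (SE), 8.87 times the vehicle level, with an adjusted p of 6.1e-11. SFRP4 rose from 7 to 39 read pairs over the 10 samples (LFC 2.25 ± 0.47, adjusted p 0.00014). DKK4 with 5 and 17 read pairs (adjusted p 0.072, and 0.027 to 0.17 over 29 alternative fits, of which 6 passed) and SFRP5 with 4 and 6 (adjusted p 0.63) did not pass.

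**Figure D3:**
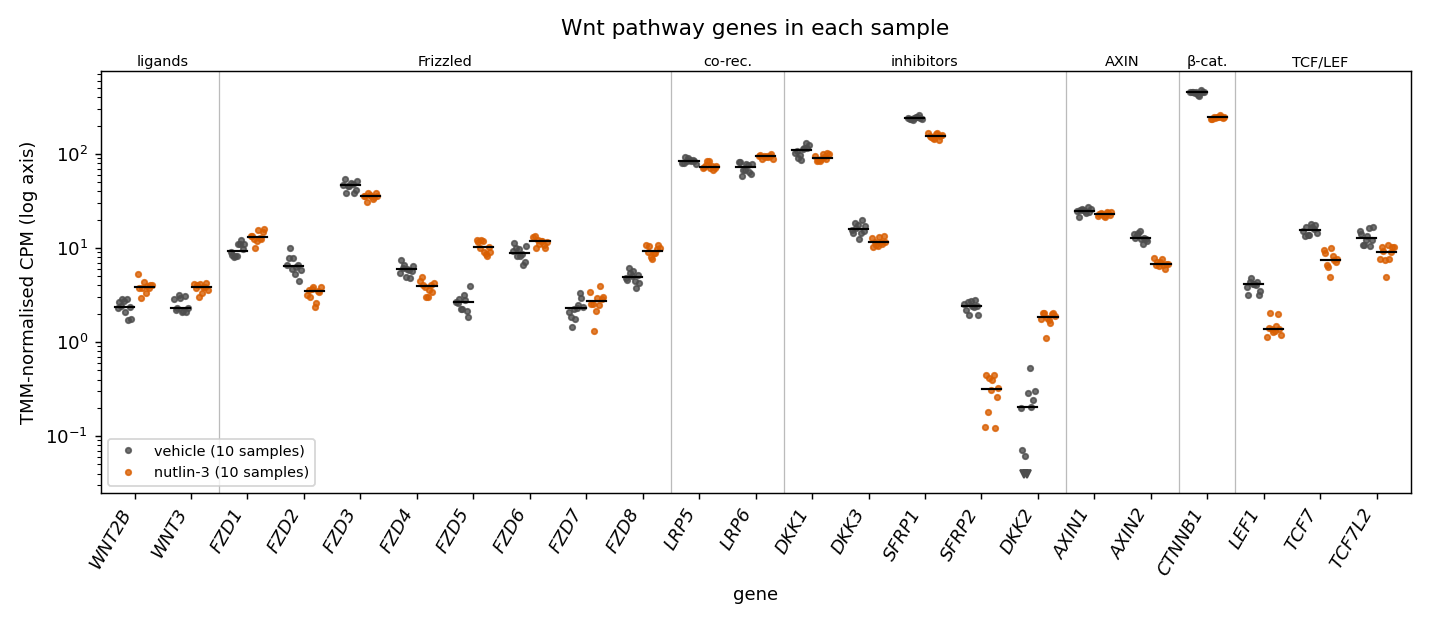
TMM-normalised CPM on a log axis (vertical) of the 22 genes that averaged 1 CPM or more and of DKK2 (horizontal), with 1 point per sample for 10 vehicle (grey) and 10 nutlin samples (orange), the median as a bar, and vehicle samples without a count as triangles at the lower edge. The conditions are apart for WNT2B, FZD2, FZD5, FZD8, LRP6, SFRP1, SFRP2, DKK2, AXIN2, CTNNB1, LEF1 and TCF7, and overlap for the other 11. Without DKK2 this is 50.0% of the 22 genes of at least 1 CPM. The share of all mRNAs tested, 40.2%, also takes in mRNAs below 1 CPM, of which only 5.6% lay wholly above vehicle. The share of mRNAs at the level of the 22 genes is therefore higher than 40.2%, and the 50.0% is not read as an excess.

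CTNNB1 (chr3:41194741-41260096, plus strand) encodes β-catenin, which besides its part in Wnt signalling links cadherins to the cytoskeleton at cell junctions. It was at 418, 453 and 474 CPM in vehicle and at 236, 247 and 260 CPM in nutlin samples, with no overlap and little spread in either condition. The LFC was -0.87 ± 0.03 (SE), a level 1.82 times lower, with an adjusted p of 3.0e-21. RNA levels say nothing of the amount or place of the protein, which the pathway controls by degradation.

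AXIN2 (chr17:65528563-65561648, minus strand), the feedback scaffold, was at 11.2, 12.9 and 15.4 CPM in vehicle and at 6.05, 6.83 and 7.84 CPM with nutlin-3. The conditions were well apart, with an LFC of -0.92 ± 0.07 (SE) and an adjusted p of 2.3e-13. Its relative AXIN1, the scaffold that most cells express, was at 21.4, 24.9 and 27.3 CPM in vehicle and at 21.4, 22.8 and 23.99 CPM with nutlin-3. The LFC of AXIN1 was -0.12 ± 0.04 (SE) with an adjusted p of 0.021, a call that most alternatives and 8 of the 20 leave-one-out fits did not keep, and the direction was reversed with scaling by library size alone (LFC 0.08, adjusted p 0.12).

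Among the TCF/LEF factors, LEF1 and TCF7 fell with no overlap, TCF7L2 fell with overlap and TCF7L1 did not pass. Their summed TPM was 16.2 ± 2.05 (SD, n = 10) in vehicle and 11.2 ± 1.86 with nutlin-3. LEF1 (chr4:108047545-108168956, minus strand), an activating partner of β-catenin in many tissues, was at 3.17, 4.11 and 4.83 CPM in vehicle and at 1.13, 1.37 and 2.04 CPM with nutlin-3. The LFC was -1.44 ± 0.12 (SE) with an adjusted p of 9.6e-12. Over its protein-coding transcripts alone, the mean level of LEF1 was 1.57 TPM in vehicle and 0.441 TPM with nutlin-3, against 3.09 and 1.34 TPM over all transcripts. LEF1 shares 5.20% of its exonic bases with the lncRNA LEF1-AS1 on the opposite strand, whose LFC was 0.32. TCF7 (chr5:134114681-134151865, plus strand), which encodes TCF-1, was at 13.4, 15.6 and 17.99 CPM in vehicle and at 4.87, 7.48 and 9.92 CPM with nutlin-3, with an LFC of -1.03 ± 0.09 (SE) and an adjusted p of 6.0e-11.

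TCF7L2, the factor of the intestinal crypt, was at 10.6, 12.8 and 16.8 CPM in vehicle and at 4.87, 9.11 and 10.8 CPM with nutlin-3. Its LFC was -0.60 ± 0.11 (SE) with an adjusted p of 2.7e-05, a call lost once the effective transcript length entered the fit (LFC -0.23, adjusted p 0.064). TCF7L1, mostly known as a repressor, stayed at a few counts, at 0.344, 0.651 and 1.27 CPM in vehicle and 0.257, 0.6998 and 1.003 CPM with nutlin-3 (LFC -0.10 ± 0.23, adjusted p 0.73). TCF7L2 made up 39.1% ± 5.81 (SD, n = 10) of the class TPM in vehicle and 48.9% ± 5.81 with nutlin-3, and LEF1 19.2% ± 3.80 and 12.2% ± 1.83. TCF7 shares 2.08% of its exonic bases with SKP1 on the opposite strand, a gene of far higher level (595 TPM in vehicle, 315 TPM with nutlin-3) whose LFC was -0.89.

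Per length, with all transcripts of a gene summed, the order of the levels in vehicle began with CTNNB1 at 159 ± 8.93 TPM (SD, n = 10) and DKK1 at 138 ± 20.1 TPM, whose samples overlapped. SFRP1 followed at 58.9 ± 4.27 TPM, LRP5 at 25.7 TPM and LRP6 at 9.94 TPM, each apart from the gene before it. From LRP6 down to LEF1 at rank 14, neighbours in the order always overlapped. With nutlin-3, DKK1 came first at 119 ± 11.7 TPM and CTNNB1 second at 90.0 ± 2.95 TPM, with no overlap between the pair. The place of DKK1 depends on transcripts with no annotated coding sequence. Over protein-coding transcripts alone, CTNNB1 was first in both conditions (158 and 88.2 TPM), and DKK1 was at rank 3 in vehicle with 48.8 TPM, behind SFRP1 at 58.9 TPM, and at rank 2 with nutlin-3 with 39.8 TPM. Over all transcripts, FZD5 moved from rank 22 to rank 16 and SFRP2 from rank 16 to rank 31. The highest ligand, WNT3, was at rank 18 in vehicle, at 0.981 ± 0.220 TPM, and at rank 17 with nutlin-3, at 1.49 ± 0.283 TPM.

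The estimates for single transcripts were examined in the genes of at least 1 CPM. Of the 230 annotated transcripts of the set, 55 were abundant enough to test, of which 10 rose and 14 fell at 5% FDR, where 26.4% of all transcripts tested rose and 22.7% fell. Set against the other transcripts of its gene by edgeR's diffSpliceDGE, 5 of 45 differed, as did 8.68% of all transcripts tested so. Of those 5, a TCF7 and an LRP6 transcript held at least 10% of the TPM of their gene.

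TCF7 is transcribed from start sites that give a long protein, whose first part binds β-catenin, and short forms that lack it. The long transcript TCF7-204 (481 codons) has its start codon in the exon at chr5:134114907-134115155, and TCF7-202 and TCF7-203 (268 and 269 codons) begin transcription downstream of it, with a start codon at position 134115938. The exon, of 83 codons, is shown as a part of what the short forms lack, with the start codon in capitals, on the plus strand of GRCh38.
TCF7-204 exon: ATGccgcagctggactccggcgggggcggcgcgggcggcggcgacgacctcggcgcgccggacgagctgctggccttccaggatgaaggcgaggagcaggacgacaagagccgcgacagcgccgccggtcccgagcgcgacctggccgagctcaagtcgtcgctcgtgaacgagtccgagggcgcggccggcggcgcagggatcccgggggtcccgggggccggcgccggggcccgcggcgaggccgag
TCF7-203 held 15.7%, 32.5% and 43.4% of the TCF7 TPM (lowest, median and highest) in vehicle and 0%, 1.46% and 17.6% with nutlin-3. In estimated read pairs this was 27.5, 86.4 and 108 in vehicle and 0, 1.81 and 15.6 with nutlin-3. Against the other TCF7 transcripts its LFC was -2.93, with an adjusted p of 0.00070. TCF7-204 held 18.8% ± 8.75 (SD, n = 10) and 19.8% ± 12.1 (adjusted p 0.90), and TCF7-202 went from 12.3% ± 11.6 to 24.4% ± 8.96 without passing (adjusted p 0.17). Since TCF7-202 and TCF7-203 differ by 1 codon, reads can be divided between them in more than 1 way. Their summed share was 20.1%, 44.4% and 57.1% in vehicle and 14.6%, 27.2% and 47.6% with nutlin-3, so that the conditions overlapped for the sum of both short forms.

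LRP6-206 (1568 codons) lacks 135 bases, or 45 codons, that LRP6-201 (1613 codons) has at chr12:12131923-12132057, and its annotated 3′ end lies 5068 bases before that of LRP6-201. The segment is shown on the minus strand of GRCh38, with its last 2 bases, which precede the splice junction of LRP6-206, in capitals.
LRP6 segment: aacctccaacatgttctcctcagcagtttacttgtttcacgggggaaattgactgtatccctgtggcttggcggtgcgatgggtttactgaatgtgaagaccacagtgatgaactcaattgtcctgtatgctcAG
LRP6-206 held 0%, 1.06% and 10.2% of the LRP6 TPM in vehicle and 16.6%, 22.4% and 28.5% with nutlin-3, with no overlap. In estimated read pairs it was at 0, 7.22 and 78.2 in vehicle and at 197, 240 and 328 with nutlin-3. Its LFC against the other LRP6 transcripts was 3.03, with an adjusted p of 1.4e-08. The share of LRP6-201 was 53.7% ± 5.22 (SD, n = 10) in vehicle and 40.3% ± 6.18 with nutlin-3, and that of LRP6-203, a transcript marked for nonsense-mediated decay, 27.6% ± 5.71 and 13.3% ± 3.59. The share of LRP6-203 was 18.8% to 39.9% in vehicle and 7.11% to 18.0% with nutlin-3, with no overlap either, whereas its share of the estimated counts, 19.99% to 39.9% and 9.81% to 23.4%, overlapped. In the test against the other transcripts of the gene neither passed (adjusted p 0.90 for LRP6-201 and 0.074 for LRP6-203). Whether the reads behind LRP6-206 lie at the missing segment or at the earlier 3′ end cannot be told from the deposited values.

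**Figure D4:**
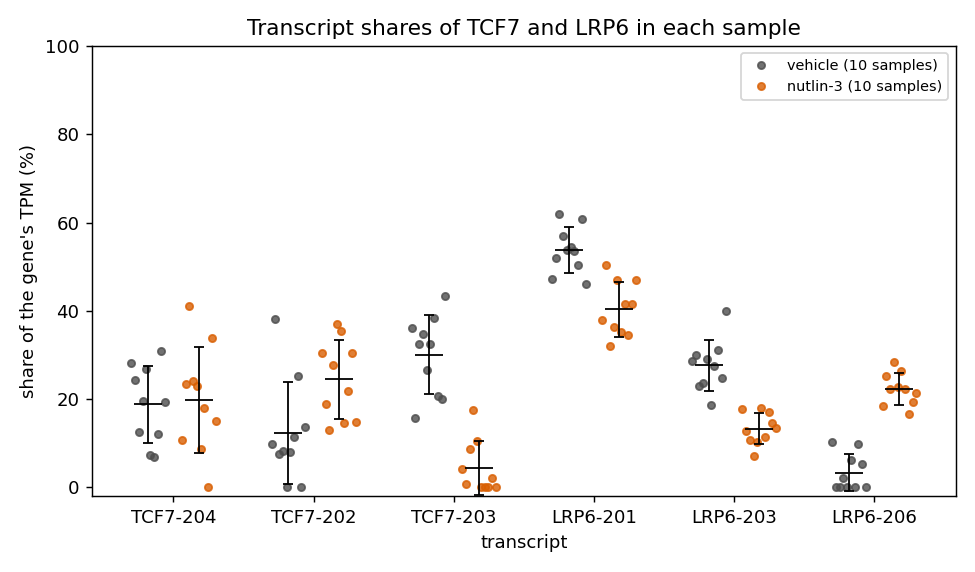
Share of each transcript in the TPM of its gene, in percent (vertical axis), for 3 transcripts of TCF7 and 3 of LRP6 (horizontal axis), with 1 point per sample, the mean and the SD for 10 vehicle (grey) and 10 nutlin samples (orange). TCF7-203 falls to a median of 1.46% with nutlin-3, and all nutlin samples of LRP6-206 lie above all vehicle samples.

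The wider pathway was read from lists of genes by role. The counts in each list stand beside 32.4% of all mRNAs tested that rose and 38.5% that fell. Of 9 genes of Wnt secretion and processing, 3 rose, 1 fell and 5 did not pass, with a median LFC of 0.22. The one that fell was WLS, the carrier that takes Wnt proteins to the cell surface, at 170, 179 and 212 CPM in vehicle and 49.1, 55.4 and 61.8 CPM with nutlin-3 (LFC -1.71 ± 0.04, adjusted p 1.2e-24). Those that rose included PORCN, which adds the lipid that Wnt needs for secretion (LFC 0.87 ± 0.08), and TRABD2A, a protease that inactivates Wnt (LFC 1.56 ± 0.21), which were both apart from vehicle in every sample.

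Of 18 tested other receptors and surface regulators, 4 rose, 7 fell and 7 did not pass, with a median LFC of -0.17. FRZB, a secreted Frizzled-related protein that the naming rule did not take in, was at 35.5, 40.8 and 49.7 CPM in vehicle and 5.23, 5.93 and 7.62 CPM with nutlin-3. Its LFC of -2.77 ± 0.07 (adjusted p 5.8e-24) was of the size of that of SFRP2, at a level with many more reads. ROR2, a receptor of WNT5A, fell by 1.35 ± 0.08 on the log2 scale, and KREMEN1, which binds DKK1 together with LRP6, by 0.91 ± 0.08. The R-spondin receptors LGR4 and LGR5 moved in opposite directions (LFC -0.76 ± 0.08 and 0.26 ± 0.04), and ZNRF3, a ligase that clears Frizzled receptors from the surface, had an LFC of -0.24 ± 0.04. All of these 6 were apart from vehicle in every sample.

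Of 22 tested genes of the Dishevelled proteins and the destruction complex, 9 rose, 8 fell and 5 did not pass, with a median LFC of 0.00. The largest changes among those of at least 1 CPM were rises of NKD2, a Dishevelled inhibitor (LFC 1.64 ± 0.17), CSNK1G1, a kinase of LRP6 (LFC 1.10 ± 0.03), and APC2, a relative of APC (LFC 0.97 ± 0.05). DACT1, below 1 CPM, had an LFC of 1.35 ± 0.24 (adjusted p 2.0e-05). APC itself, which works with AXIN, fell by 0.38 ± 0.03 on the log2 scale, at 83.0, 88.8 and 96.5 CPM in vehicle and 65.3, 69.5 and 71.2 CPM with nutlin-3. The nuclear cofactors of β-catenin had 16 genes tested, of which 5 rose and 10 fell, with a median LFC of -0.30. Those that fell included BCL9 (LFC -0.59 ± 0.04), a bridge from β-catenin to PYGO, and CTNND1 (LFC -0.62 ± 0.04), a catenin that acts on the repressor ZBTB33. TLE2, a corepressor of TCF factors, rose from 0.404 to 3.24 CPM in the median (LFC 2.98 ± 0.27).

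Genes known as direct β-catenin targets and feedback genes did not move as 1 group. Of 18 tested, 10 rose (55.6%), 3 fell (16.7%) and 5 did not pass, with a median LFC of 0.29. The list held no gene of the set, so AXIN2, a target that fell (LFC -0.92), is not in these counts. The largest rises among those of at least 1 CPM were those of FOSL1, a part of the AP-1 factor (LFC 5.08 ± 0.12), SOX9, a factor of neural crest and cartilage (LFC 3.999 ± 0.14), and MYC (LFC 2.61 ± 0.27, from 0.623 to 4.24 CPM in the median). FOSL1 and MYC passed that level only through the nutlin samples, with 0.474 and 0.604 CPM in the mean of vehicle. Many genes of the list are also targets of other pathways. The feedback genes among them were mixed: NKD1 fell (LFC -0.60 ± 0.12), like AXIN2 and ZNRF3, LGR5 rose, and NOTUM (LFC 0.22 ± 0.12, adjusted p 0.10) and SP5 (LFC -0.74 ± 0.38, adjusted p 0.099) did not pass. RNF43, the partner of ZNRF3, was below 1 CPM in every sample and rose (LFC 1.53 ± 0.42, adjusted p 0.0022).

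Of 14 genes of planar cell polarity, the branch in which FZD3 and FZD6 act, 6 rose, 4 fell and 4 did not pass, with a median LFC of 0.40. VANGL1 fell from 7.99 to 3.19 CPM in the median (LFC -1.42 ± 0.09). DAAM1, which passes the signal from Dishevelled to the cytoskeleton, fell by 1.08 ± 0.06 on the log2 scale, and CELSR1, a cadherin of the complex, rose by 1.24 ± 0.17. Each of these 3 was apart from vehicle in every sample.

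**Figure D5:**
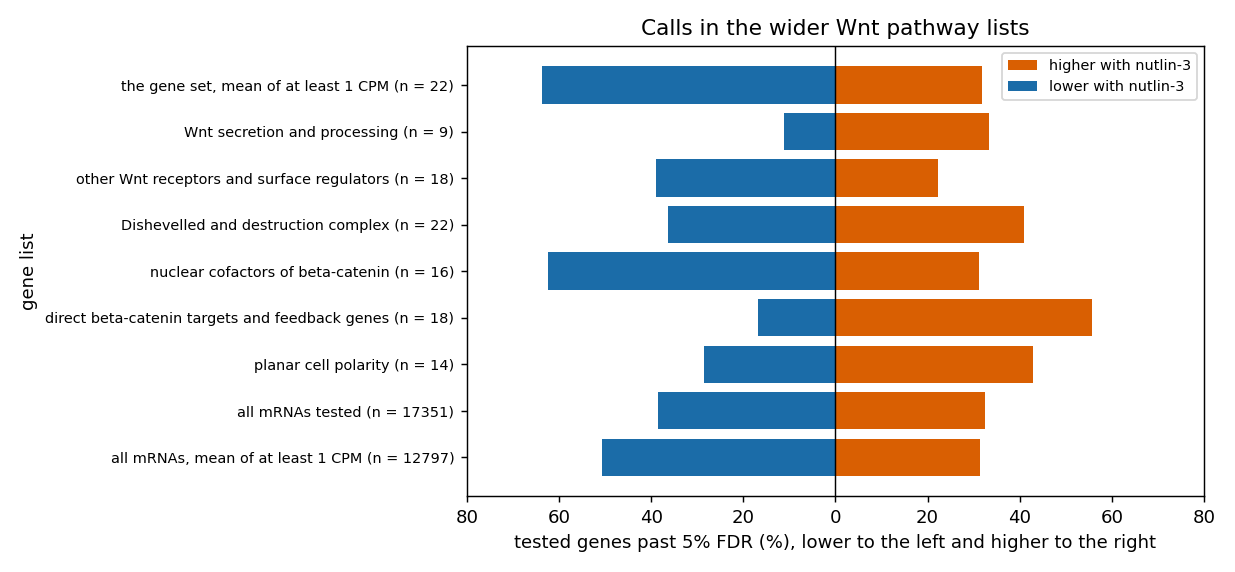
Percentage of tested genes that were SDE at 5% FDR (horizontal axis, lower to the left and higher to the right) in the gene set at a mean of at least 1 CPM and in 6 wider lists (vertical axis), above the same for all mRNAs. The nuclear cofactors, all of at least 1 CPM, have 62.5% lower, beside 50.6% of all mRNAs at that level. The direct β-catenin targets, 14 of 18 at that level, have 55.6% higher, beside 31.4% of mRNAs at that level and 32.4% of all mRNAs tested. The list of targets leaves out the genes of the set, such as AXIN2.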

How the data were processed

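RNA-seq of 20 NGP samples was analysed from processed files. The authors quantified paired reads with kallisto 0.42.4 on GRCh38 transcripts (Ensembl release 85) and deposited, per transcript, estimated counts with no normalization, TPM scaled by effective length and depth, and effective lengths in bases. Whether kallisto was run with a strand setting was not given in the sources used here. Of 198968 transcripts, 191106 (96.05%) were assigned to GENCODE release 44 genes by identifier and the rest left out. Estimated counts were summed per gene and rounded. The test took in mRNA and lncRNA genes with a count of 1 or more in both conditions and used edgeR 4.0.16 (quasi-likelihood F-test, TMM, condition as the only term, Benjamini-Hochberg, 5% FDR) in R 4.3.3, and transcripts passing filterByExpr were tested with edgeR and diffSpliceDGE. SEs were derived from the F statistic. DESeq2 1.42.0 and limma 3.58.1 were alternatives. TPM gave levels and shares and entered no test. The fits were tested on simulated data. p-values measure the spread between samples of 1 cell line.

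Genes of at least 1 CPM were described in each condition, lower ones by summed read pairs. The mean behind this cut is over both conditions, so a gene can pass it through 1 condition alone. TRABD2A, NKD2, TLE2, FOSL1, MYC and CELSR1 averaged below 1 CPM in vehicle, and SFRP2 with nutlin-3. From a wider list, the 3 SDE genes of at least 1 CPM with the largest LFC were named, plus partners and feedback genes of the genes described. The genes and lists were chosen with earlier results of these data known. 2 marker genes are not reported here.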

Additional observations from a re-analysis of the deposited data

How the results depend on the processing

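Requiring more counts for a gene to be tested (filterByExpr) lowered the number of genes of the set that rose from 15 to 8, since fewer genes below 1 CPM were tested, and 13 fell. Scaling by library size alone gave 20 that rose and 11 that fell, beside 15 and 14, with the LFC of all genes shifted by a median of 0.19, and it reversed LRP5 (LFC 0.0073, adjusted p 0.88) and AXIN1 (LFC 0.075, adjusted p 0.12). The other settings tried (DESeq2 size factors, no filter, DESeq2, limma voom, effective length, 1% FDR) gave 14 to 17 that rose and 11 to 14 that fell. Leaving out 1 sample at a time gave 15 to 18 that rose and 13 to 14 that fell. Over all settings, 13 of 45 genes lost or gained a call or turned in at least 1. Of the other 32, 17 were tested in every kind of fit and 15 had no value under filterByExpr, 6 of which had risen (WNT4, WNT7B, WNT9A, WNT10B, FZD10 and SFRP4). Among genes that did not pass, leaving out 1 sample made WNT3A (adjusted p 0.045) and WNT10A (0.026) pass without vehicle replicate 11, WNT11 (0.037) without vehicle replicate 10, WNT5A (0.026) without vehicle replicate 6 and FZD7 (0.033) without nutlin replicate 4. WNT9B passed in 6 such fits (without vehicle replicate 9, 10 or 11, or nutlin replicate 1, 3 or 11) and DKK4 in 5 (without vehicle replicate 10 or 12, or nutlin replicate 1, 4 or 10). With transcripts of at least 1 count per condition tested, 15 transcripts rose and 17 fell, beside 10 and 14. As a share of counts in place of TPM, TCF7-203 went from 30.7% to 4.52% and LRP6-206 from 2.05% to 16.9% in the mean.

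The labels give 8 replicate numbers to both conditions, but same-numbered samples did not deviate together (mean correlation 0.0089 over 8 pairs, -0.00075 over 92 other pairs). Whether the number stands for a pairing in the experiment was not given in the sources used here, and these correlations cannot settle it. A fit with that number as a replicate block used the 16 samples concerned, and in it 14 rose and 13 fell, the same as in those samples with no block, and WNT8B (adjusted p 0.17) and AXIN1 (adjusted p 0.29) did not pass. Depth limits the genes below 1 CPM, most of which had under 10 read pairs in every sample.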

Other observations

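Besides TCF7-203 and LRP6-206, 3 transcripts that hold less of their gene also differed against it, named here after their values were seen. The CTNNB1 transcripts CTNNB1-208 and CTNNB1-210 held 1.13% ± 0.390 (SD, n = 10) and 1.09% ± 0.932 of the CTNNB1 TPM in vehicle, and 3.11% ± 1.09 and 2.79% ± 1.15 with nutlin-3 (adjusted p 0.010 and 0.00032 by edgeR). SFRP1-202 went from 9.78% ± 7.08 to 3.86% ± 2.64 of the SFRP1 TPM (adjusted p 0.031).

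Several genes of the set are neighbours in the genome. The outermost annotated bounds of WNT3 and WNT9B lie 47 bases apart on chr17, and their LFC values were 0.59 ± 0.10, which passed, and 0.61 ± 0.26, which passed only in some of the alternative fits. WNT9A and WNT3A lie 59.1 kb apart on chr1 and WNT10B and WNT1 6.59 kb apart on chr12, and in each pair only the first passed. WNT6 and WNT10A, 6.62 kb apart on chr2, both did not pass. DKK2 and LEF1, 764 kb apart on chr4, moved in opposite directions.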
